A study of Mus musculus with 23 samples.

Results

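This account concerns 10 genes of the hepatic xenobiotic receptor machinery in mouse liver. They are *Nr1i2*, which encodes the pregnane X receptor (PXR), *Nr1i3*, which encodes the constitutive androstane receptor (CAR), the retinoid X receptor genes *Rxra*, *Rxrb* and *Rxrg*, the liver receptors *Hnf4a* and *Nr5a2*, the coactivator gene *Ncoa1*, and *Ncor1* and *Nrip1*, whose products repress nuclear receptor transcription. They were chosen by name. All array probes whose gene name in the array files equals a member were taken, which gave 27 probes out of 56605 on the array, for 10 of 37074 gene names. All 27 probes passed the filter on dim probes, which kept 32087 probes of 21056 genes.

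Liver RNA of 23 male mice was measured on 1-colour Agilent arrays, with 1 array per mouse. Wild-type (WT) C57BL/6J mice and *Pxr*-/- mice backcrossed to that strain were injected intraperitoneally on 4 days with pregnenolone 16α-carbonitrile (PCN), a steroid that activates rodent PXR, at 100 mg/kg in corn oil, or with corn oil alone (CONT). They were killed at zeitgeber time 6, with the final injection 6 h earlier, in the fed state by the sample labels. The paper, in which mice had free access to food, describes them as semi-fasted at this time of day. The arrays covered 6 mice on PCN and 6 on oil among the *Pxr*-/- mice, and 5 on PCN and 6 on oil among the WT mice. WT mice were purchased at 6 weeks of age, whereas *Pxr*-/- mice, whose age is not given, had been bred in the facility for 10 years. All mice were acclimatized for 2 weeks. Genotype, colony of origin and any difference in age therefore cannot be told apart. Signals are log2 intensities after quantile normalization, and a probe was called when its adjusted p in limma was at most 0.05 and its fold change was above 1.5.

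Over all arrays, 29510 to 33321 probes were well above background, and the signals of any pair of arrays correlated at 0.977 or more. Arrays had been washed in 2 batches, each of which held mice of all 4 groups, and the batch was a term in the model. The hepatocyte markers *Alb*, *Apoa1* and *Ttr* were well above background on all 23 arrays, which goes with the labelled tissue. Markers of other cells, such as *Krt19*, *Cd3e* and *Hba-a1*, were as well, so detection alone does not single out hepatocytes.

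PXR and CAR are sister receptors that bind drugs, steroids and bile acids, and both switch on genes of drug oxidation, conjugation and export in hepatocytes. Each binds DNA as a heterodimer with a retinoid X receptor, on paired half-sites related to AGGTCA. CAR is held in the cytoplasm of resting hepatocytes by a chaperone complex and enters the nucleus upon activation, so its activity is not set by its mRNA alone. HNF4A maintains hepatocyte identity, and LRH-1, the product of *Nr5a2*, acts on bile acid and cholesterol genes. Coactivators such as NCOA1 are recruited by ligand-bound receptors, NCOR1 binds receptors that lack an activating ligand, and NRIP1 can bind and repress receptors that carry one.

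Both probes for *Nr1i3* are shown because they carry the main result and lie far apart on the mRNA. In mm9, the first covers chr1:173147776-173147835 on the plus strand within 1 exon, starting at position 1070 of its transcript. The second starts at position 200 and crosses an intron, so that its 60 bases span chr1:173144301-173144529, and its capitals mark the first ATG from which the reading frame has no stop codon up to the end of the probe.
Nr1i3, probe near the end: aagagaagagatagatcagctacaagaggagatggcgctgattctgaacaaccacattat
Nr1i3, probe near the start: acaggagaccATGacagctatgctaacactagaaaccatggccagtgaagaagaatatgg

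The targeted gene came first as a check of the labels. *Nr1i2* was read by 1 probe at the end of its mRNA (chr16:38248745-38248804 in mm9, minus strand), which was well above background in all 23 livers, *Pxr*-/- included. The log2 signals in WT CONT ranged from 10.63 to 12.15 with a median of 11.60, and those in *Pxr*-/- CONT ranged from 10.16 to 12.08 with a median of 11.79. In WT PCN they were 12.18, 12.46, 12.07, 11.78 and 11.99, and in *Pxr*-/- PCN they ranged from 11.05 to 12.41 with a median of 12.06. The signals of WT and *Pxr*-/- livers overlapped, and the fitted difference in CONT was -0.03 ± 0.28 (SE, limma adjusted p = 0.977). Which exons the deletion removes is not given in the sources used here, so a probe at this end of the transcript does not check the genotype.

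PXR mRNA signal was not called after PCN in either genotype. In WT mice the mean went from 11.47 ± 0.55 (SD, n = 6) to 12.10 ± 0.25 (SD, n = 5), a fitted log2 change of 0.67 with a 95% confidence interval of 0.07 to 1.28 (limma adjusted p = 0.103). The WT CONT mice were widely spread, and without WT CONT replicate 3 alone, the highest of them, the change was 0.88 with an adjusted p of 0.0298 and passed both thresholds. It also passed both in the deposited log2 values, at 0.84 (adjusted p = 0.0426), where the median change of all probes was 0.11. Without WT CONT replicate 2, the lowest, it was 0.46 (adjusted p = 0.236), and it was 0.31 (adjusted p = 0.617) in washing batch 1 alone and 0.99 (adjusted p = 0.0502) in batch 2 alone. The change in *Pxr*-/- mice was 0.48 ± 0.28 (SE, adjusted p = 0.334). The difference between the genotypes' responses, WT minus *Pxr*-/-, was 0.19 with an interval of -0.65 to 1.03 (adjusted p = 0.881).

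*Nr1i3* was the member that passed both the adjusted p and the fold threshold. CAR mRNA rose in *Pxr*-/- livers after PCN on both of its probes, it was not called in WT livers after PCN, and the responses of the genotypes differed on the probe near the end of the mRNA. Of the 10 member genes, *Nr1i3* alone was called for PCN in *Pxr*-/- mice, where 2.55% of all 21056 genes were called, and for *Pxr*-/- PCN against WT PCN, where 2.38% were. It was also the single member called for the difference between responses, against 1.17% of all genes.

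On the probe near the end, the log2 signals of *Nr1i3* in WT CONT ranged from 10.67 to 11.44 with a median of 11.16. In WT PCN they were 10.73, 11.40, 11.19, 9.78 and 10.79. Those in *Pxr*-/- CONT ranged from 10.20 to 11.11 with a median of 10.73, and those in *Pxr*-/- PCN from 11.18 to 11.99 with a median of 11.76. All 6 *Pxr*-/- PCN livers thus lay above all 6 *Pxr*-/- CONT livers, whereas the WT PCN livers were the most dispersed group and 1 of them, replicate 4, was the lowest of all 23. That array was also the lowest of WT PCN for *Nr1i2* and the highest for *Nr5a2* and all 5 *Nrip1* probes. Replicate 2 was the lowest CONT array of each genotype for both *Nr1i2* and *Nr1i3*, so extreme arrays were shared between members.

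The fitted change of *Nr1i3* after PCN in *Pxr*-/- mice was 0.97 ± 0.19 (SE, limma adjusted p = 0.00531), a 1.96-fold rise from 10.71 ± 0.33 to 11.67 ± 0.30 (SD, n = 6 in each group). The probe near the start gave 1.03 ± 0.24 (SE, adjusted p = 0.0126), a 2.04-fold rise from 8.87 ± 0.49 to 9.90 ± 0.40, although there the groups overlapped, since *Pxr*-/- PCN replicate 1 lay at 9.18 and the highest *Pxr*-/- CONT mouse at 9.52. The rise was present in both washing batches taken alone, at 1.11 (adjusted p = 0.116) in batch 1 and 0.83 (adjusted p = 0.0462) in batch 2 on the probe near the end. With any 1 array left out it lay between 0.87 and 1.04, with a largest adjusted p of 0.0179.

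In WT mice *Nr1i3* was at 11.11 ± 0.27 (SD, n = 6) in CONT and 10.78 ± 0.62 (SD, n = 5) after PCN, a fitted change of -0.30 ± 0.20 (SE, limma adjusted p = 0.315) that did not exceed the spread between mice. Its sign differed between the washing batches, at -0.81 in batch 1 and 0.33 in batch 2, and without WT PCN replicate 4 it was -0.08. The probe near the start gave -0.22 ± 0.25 (adjusted p = 0.568), and 0.03 without that mouse. The WT data therefore gave no direction for CAR mRNA after PCN, with an interval of -0.72 to 0.12 on the probe near the end.

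**Figure D1:**
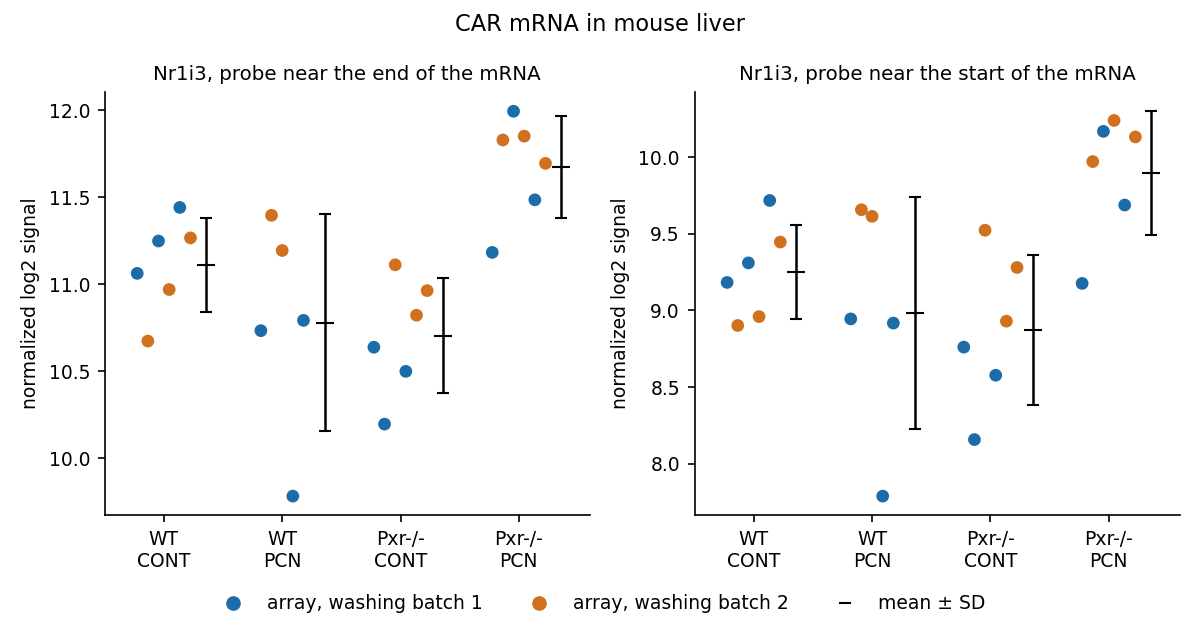
Normalized log2 signal of the 2 *Nr1i3* probes (vertical axes, on different scales) in the 4 groups (horizontal axis), with 1 point per array coloured by washing batch and the mean ± SD to the right of the points. The *Pxr*-/- PCN group has the highest mean on both probes, 11.67 and 9.90, and WT PCN replicate 4 is the lowest array on both, at 9.78 and 7.79.

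The response of WT mice minus that of *Pxr*-/- mice was -1.27 ± 0.28 (SE, limma adjusted p = 0.0213) on the probe near the end of *Nr1i3*, larger in size than 99.5% of all 32087 probes. It was -1.25 ± 0.34 (adjusted p = 0.0743) on the probe near the start, which passed the fold threshold but not the adjusted p. Within washing batch 1 the difference on the probe near the end was -1.92 (adjusted p = 0.0613), and within batch 2, which held 2 WT PCN arrays, it was -0.50 (adjusted p = 0.333), so that it was called in neither batch alone. With any 1 array left out it lay between -1.39 and -1.05, and its largest adjusted p was 0.0447.

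After PCN, *Pxr*-/- livers had 0.86 ± 0.20 (SE, limma adjusted p = 0.0125) more log2 *Nr1i3* signal than WT livers, a 1.82-fold difference. The probe near the start gave 0.87 ± 0.25 (adjusted p = 0.0350). Its call was lost in 6 of 23 fits with 1 array left out and in 6 of 11 other alternatives, among them the deposited values (adjusted p = 0.0646). Without WT PCN replicate 4 it was 0.61, with an adjusted p of 0.109. The probe near the end kept its call without that mouse, at 0.64 (adjusted p = 0.0347). Within the washing batches the probe near the end gave 1.12 (adjusted p = 0.0647) and 0.50 (adjusted p = 0.237), and neither was called. In CONT livers the genotypes were not separated, at -0.41 ± 0.19 (SE, adjusted p = 0.438). The order of the *Nr1i3* means was therefore *Pxr*-/- PCN, WT CONT, WT PCN and *Pxr*-/- CONT, and the groups overlapped between neighbours. WT CONT was not separated from WT PCN or from *Pxr*-/- CONT by the tests above, while pairs of groups that differ in both genotype and treatment were not compared.

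Both probes of *Nr1i3* followed each other across the 23 arrays, with a Pearson correlation of 0.98. These points share hybridization and normalization, so the correlation describes how alike the readings are and does not add mice. The balance of RNA ends was taken over 2343 other transcripts with probes at least 1000 bases apart. It was the mean log2 difference between the probe farthest along and the probe least far along, centred over all 23 arrays for each transcript. It ranged from -0.03 to 0.05 in *Pxr*-/- CONT arrays and from -0.05 to 0.03 in *Pxr*-/- PCN arrays, which overlapped. Because of the centring, these values compare arrays with each other and do not measure whether the RNA was intact. Mean log2 signals of the 12 hepatocyte markers ranged from 17.07 to 17.31 in *Pxr*-/- CONT and from 17.20 to 17.34 in *Pxr*-/- PCN. The 12 Kupffer cell markers and the 12 endothelial markers had positive fitted changes for all members after PCN in *Pxr*-/- mice, with none called and medians of 0.31 and 0.19. Of 7 cholangiocyte markers, 5 were higher and 2 lower in that comparison, with none called and a median of 0.60. Of 12 stellate markers, 11 were higher and 1 lower, with 3 called and a median of 0.11. Lymphocyte markers were mixed, with 5 higher and 4 lower, as were blood markers, with 4 higher and 5 lower. In whole liver, a change in the number of cells of a type and a change in RNA per cell cannot be told apart. The part of cell makeup in the *Nr1i3* result was not tested.

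Across all 23 arrays, with the batch effect removed, the genes most like *Nr1i3* among 15098 genes with names in RefSeq included *Tollip* (r = 0.82) and *Gulo* (r = 0.82), which encodes the last enzyme of ascorbate synthesis. The least like was *Alkbh7* (r = -0.88). Once the group means were also removed, these correlations were 0.74, 0.59 and -0.82. They are given as descriptions of likeness over 23 livers, and the genes were picked as the extremes of the list. *Nr1i2* itself correlated with *Nr1i3* at 0.35.

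The stretch of 250 bases before the annotated start of *Nr1i3* (GRCm38.p6, chr1:171213720-171213969, plus strand, from RefSeq) is shown because both probes of this gene moved together.
Nr1i3, upstream stretch: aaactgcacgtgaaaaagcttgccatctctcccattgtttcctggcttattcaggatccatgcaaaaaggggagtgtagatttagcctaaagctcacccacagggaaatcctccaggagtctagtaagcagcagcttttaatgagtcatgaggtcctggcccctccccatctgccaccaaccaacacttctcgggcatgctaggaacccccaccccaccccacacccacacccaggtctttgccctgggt
The half-site AGGTCA, read on both strands, has no match in this stretch or in the 50 bases that follow. All 10 members had at least 1 such window of 300 bases in RefSeq, 17 windows in all, and AGGTCA was found in 3 windows, 1 each for *Nr5a2*, *Rxrg* and *Rxra*. Of all 32851 windows in the table, 16.3% held it. A match describes letters only, and these windows carry no binding data here.

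The obligate partners of PXR and CAR were next. *Rxra* encodes the main retinoid X receptor of liver, and its brighter probe (chr2:27618345-27618404 in mm9, plus strand, at position 4772 of its mRNA) was among the brightest on the array, with no saturated spot and below the highest normalized log2 signal of 18.8. Its log2 signals were 15.68, 15.65, 15.83, 15.74 and 15.80 in WT PCN and ranged from 16.04 to 16.30 with a median of 16.11 in WT CONT. No WT PCN liver reached the lowest WT CONT liver. The fitted change of *Rxra* was -0.40 ± 0.07 (SE, limma adjusted p = 0.000271), which is below the 1.5-fold threshold, so the probe was not called. It was -0.35 in batch 1 and -0.45 in batch 2.

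The same *Rxra* probe in *Pxr*-/- livers ranged from 16.01 to 16.20 in CONT and from 15.86 to 16.23 after PCN, a change of -0.05 ± 0.07 (SE, limma adjusted p = 0.744). The difference between the responses was -0.36 ± 0.09 (SE, adjusted p = 0.0653) and did not pass. Every *Pxr*-/- PCN liver lay above every WT PCN liver, with a difference of 0.30 ± 0.07 (adjusted p = 0.00982), again below 1.5-fold. The deposited values, which differ in filtering, batch correction and normalization, gave smaller differences. There the median change of all probes after PCN in WT mice was 0.11, the *Rxra* change was -0.15 (adjusted p = 0.151), and the *Pxr*-/- minus WT difference after PCN was 0.05 (adjusted p = 0.682).

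The other probe for *Rxra* (chr2:27615316-27615375, position 1743) did not follow the brighter one, with a correlation of -0.08 over 23 arrays. It ranged from 8.32 to 8.56 in WT CONT, and was 8.54, 8.78, 8.87, 8.22 and 8.45 in WT PCN, with a fitted change of 0.11 ± 0.10 (SE, limma adjusted p = 0.426). The lower *Rxra* signal thus rests on 1 of 2 probes.

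**Figure D2:**
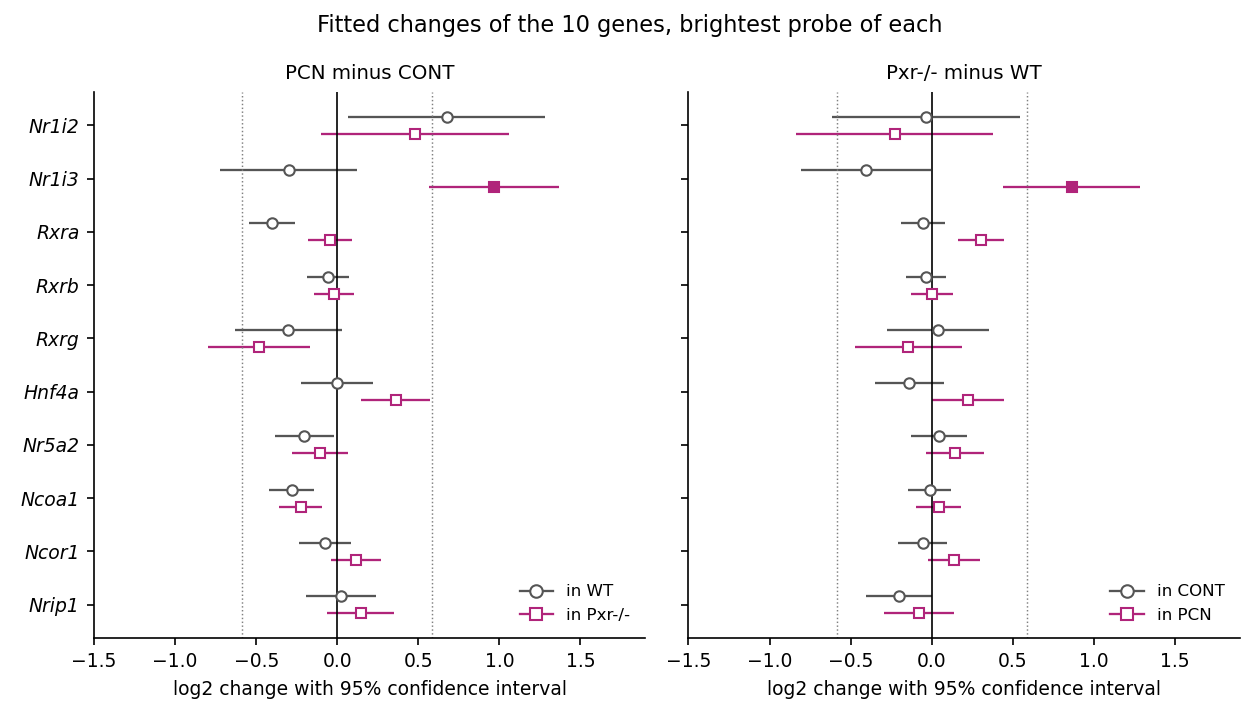
Fitted log2 changes of the brightest probe of each of the 10 genes (horizontal axes, log2 scale) with 95% confidence intervals as bars, for PCN minus CONT in each genotype (left) and *Pxr*-/- minus WT in each treatment (right). Filled symbols are called, dotted lines mark 1.5-fold, and the 2 filled symbols are both *Nr1i3*, at 0.97 and 0.86.

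*Rxrb* and *Rxrg* encode the other retinoid X receptors, and *Rxrg* is best known from muscle and brain. None of their probes was called in any of the 5 comparisons. *Rxrg* signals ranged from 8.93 to 9.71 in WT CONT, and were 8.92, 9.46, 9.07, 9.39 and 8.90 in WT PCN. They ranged from 9.20 to 9.88 in *Pxr*-/- CONT and from 8.68 to 9.35 in *Pxr*-/- PCN. Its fitted changes after PCN were -0.30 (limma adjusted p = 0.185) in WT mice and -0.48 (adjusted p = 0.0575) in *Pxr*-/- mice, with overlapping groups in both.

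*Rxrb* had 3 probes. The brightest, at position 2563 of the mRNA, stayed between 12.31 and 12.58 on all 23 arrays, and its change after PCN had an interval of -0.19 to 0.07 in WT mice and of -0.14 to 0.10 in *Pxr*-/- mice. The other 2 cross introns further upstream and are shown because they followed each other (r = 0.87) and not the brightest probe (r = -0.34 and -0.15, in the order shown).
Rxrb, position 1390: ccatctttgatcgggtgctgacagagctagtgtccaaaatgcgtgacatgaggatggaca
Rxrb, position 1491: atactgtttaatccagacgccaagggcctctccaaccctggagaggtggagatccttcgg
In mm9 these span chr17:34173690-34173864 and chr17:34173894-34174155 on the plus strand. Their fitted changes were 0.26 and 0.28 in WT mice (limma adjusted p = 0.161 and 0.216) and 0.26 and 0.27 in *Pxr*-/- mice (adjusted p = 0.216 and 0.322).

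Neither of the 2 liver receptors was called in any comparison. *Hnf4a* was read at position 4262 by its brighter probe (chr2:163398548-163398607 in mm9, plus strand), which lay at 15.27 ± 0.16 in WT CONT, 15.27 ± 0.12 in WT PCN, 15.13 ± 0.15 in *Pxr*-/- CONT and 15.49 ± 0.24 in *Pxr*-/- PCN (SD, n = 5 or 6). The fitted change of *Hnf4a* in *Pxr*-/- mice was 0.36 ± 0.10 (SE, limma adjusted p = 0.0371), below 1.5-fold and with overlapping groups, while the WT change had an interval of -0.22 to 0.22 (adjusted p = 0.998). The change in *Pxr*-/- mice missed the adjusted p threshold in the deposited values, at 0.39 (adjusted p = 0.0597), and in several fits with 1 array left out, of which the lowest value was 0.28 (adjusted p = 0.0880) without *Pxr*-/- PCN replicate 2. The difference between the responses was -0.36 ± 0.15 (adjusted p = 0.256). The other *Hnf4a* probe, at position 413, had a change of 0.26 ± 0.15 (adjusted p = 0.304) in *Pxr*-/- mice and correlated with the first at 0.61.

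*Nr5a2* had 1 probe (chr1:138740903-138740962, minus strand). In WT CONT it ranged from 11.69 to 11.96, and in WT PCN it read 11.66, 11.55, 11.38, 12.08 and 11.75. The mouse at 12.08 was the one lowest for *Nr1i3*. The fitted change of *Nr5a2* in WT mice was -0.20 ± 0.09 (SE, limma adjusted p = 0.0989), and in *Pxr*-/- mice -0.11 ± 0.08 (adjusted p = 0.504). Without WT PCN replicate 4 the WT change was -0.28, with an adjusted p of 0.0169, still below 1.5-fold.

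*Ncoa1*, which encodes the coactivator SRC-1, was the member whose brighter probe was lower after PCN at the adjusted p threshold in both genotypes, in each by less than 1.5-fold. That probe (chr12:4249560-4249619 in mm9, minus strand) ranged from 10.45 to 10.73 in WT CONT and read 10.20, 10.21, 10.45, 10.38 and 10.16 in WT PCN. Its signals ranged from 10.49 to 10.60 in *Pxr*-/- CONT and from 10.16 to 10.43 in *Pxr*-/- PCN, without overlap. The fitted changes of *Ncoa1* were -0.28 ± 0.07 (SE, limma adjusted p = 0.00444) in WT mice and -0.23 ± 0.06 (SE, adjusted p = 0.0368) in *Pxr*-/- mice, and they differed by -0.05 with an interval of -0.25 to 0.14. Neither reached the threshold in the deposited values, at -0.12 (adjusted p = 0.377) and -0.18 (adjusted p = 0.313), where the median changes of all probes were 0.11 and 0.03. With 1 array left out the adjusted p in *Pxr*-/- mice rose to as much as 0.0882. The dimmer probe, which carries the accession of a cDNA clone, gave -0.23 (adjusted p = 0.0525) and -0.10 (adjusted p = 0.481).

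**Figure D3:**
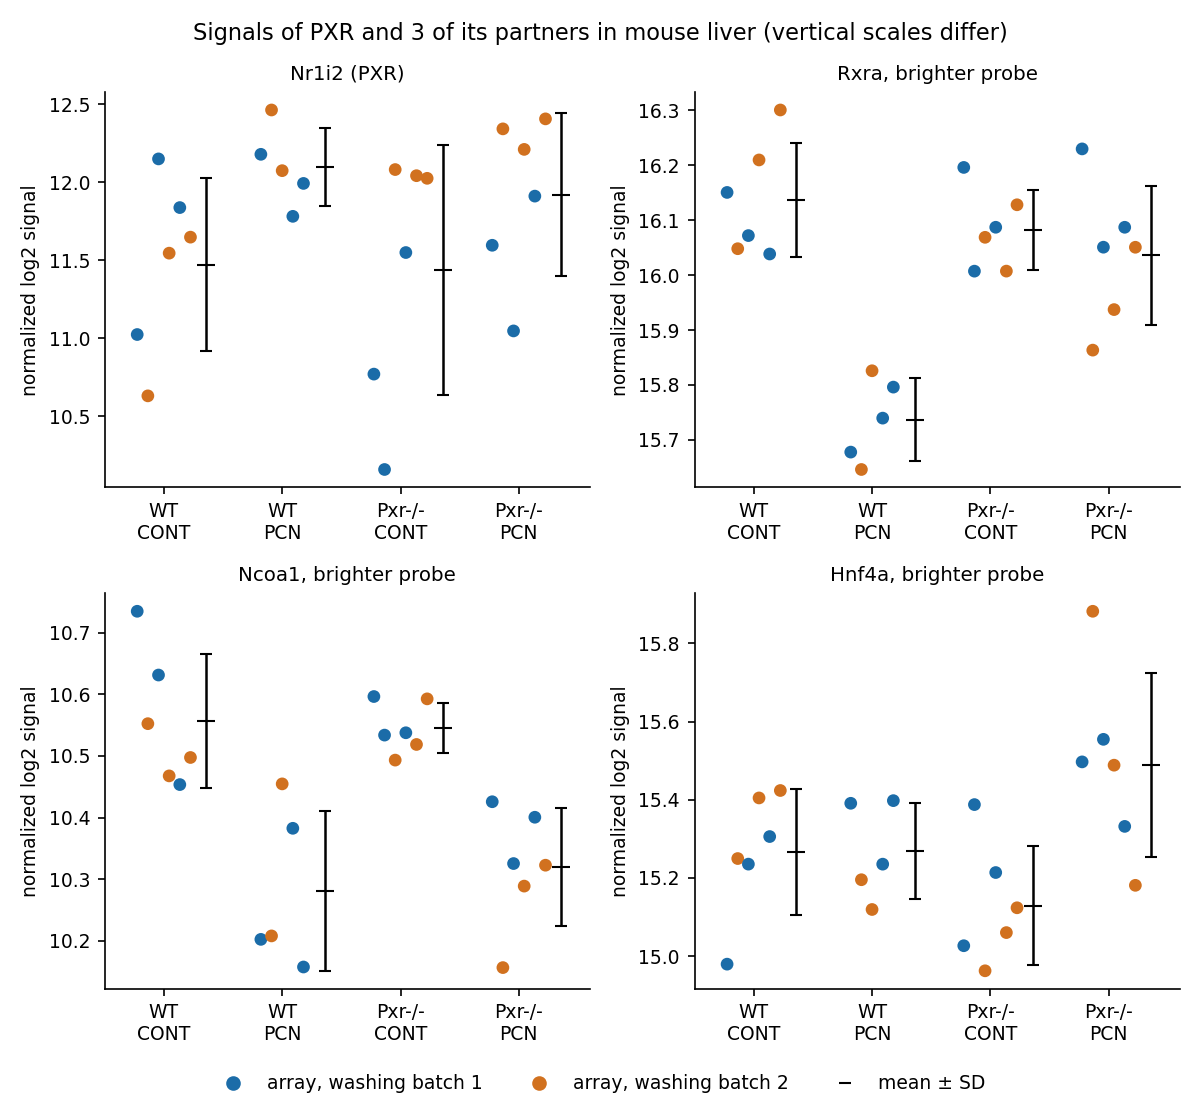
Normalized log2 signal of *Nr1i2*, and of the brighter probes of *Rxra*, *Ncoa1* and *Hnf4a* (vertical axes, on different scales), in the 4 groups (horizontal axis), with 1 point per array coloured by washing batch and the mean ± SD to the right of the points. *Rxra* separates WT PCN, between 15.65 and 15.83, from the other 3 groups, while the *Nr1i2* groups overlap.

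*Ncor1* had 8 probes and none was called. Of these, 6 lie on the strand of the gene, and their changes after PCN lay between 0.05 and 0.20 in *Pxr*-/- mice, where the probe with the largest, which crosses an intron, was at 11.10 ± 0.08 in CONT and 11.30 ± 0.09 after PCN (SD, n = 6 each), without overlap but with an adjusted p of 0.0650 in limma. The other 2 probes lie on the opposite strand and carry the accessions of cDNA clones, so whether they read *Ncor1* mRNA was not tested. One of them (chr11:62145208-62145267 in mm9, plus strand) reached the adjusted p threshold after PCN in both genotypes, at -0.38 ± 0.11 (SE, adjusted p = 0.0198) in WT mice and -0.39 ± 0.11 (SE, adjusted p = 0.0324) in *Pxr*-/- mice, both below 1.5-fold. The other was well above background on 9 of 23 arrays, and 1 *Pxr*-/- CONT array read 7.86 there against 5.62 for the next.

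*Nrip1* encodes RIP140 and had 5 probes, named from 1 RefSeq mRNA and 4 Ensembl transcripts. Their fitted changes in *Pxr*-/- mice after PCN lay between 0.04 and 0.19 (limma adjusted p from 0.208 to 0.904). The probe for the RefSeq mRNA (chr16:76291555-76291614, minus strand) read 8.83, 8.97, 8.61, 9.05 and 8.75 in WT PCN and ranged from 8.50 to 8.76 in *Pxr*-/- PCN, with a difference of -0.24 ± 0.08 (SE, adjusted p = 0.0714). Pairs of *Nrip1* probes correlated at 0.24 to 0.69 over the 23 arrays.

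Counted over the members, 0 of 10 genes were called in WT mice after PCN with limma, where 7.07% of all genes were, and 5 had at least 1 probe with an unadjusted p under 0.05, as had 41.2% of all genes. The same 10 genes gave 0 calls in *Pxr*-/- CONT against WT CONT, where 0.337% of all genes were called and 3 members had a probe with an unadjusted p under 0.05, as had 15.2% of all genes. Regardless of fold, 3 members reached an adjusted p of 0.05 in WT mice, where 28.2% of all genes did, and 4 in *Pxr*-/- mice, where 8.27% did. In each genotype 1 of these was *Ncor1*, through the opposite-strand probe alone. All these counts take any probe of a gene. The members had 27 probes for 10 genes, against 32087 for 21056 genes, so they had more chances to pass per gene. The median change of the 10 brightest probes was -0.14 in WT mice and 0.05 in *Pxr*-/- mice, against -0.02 and -0.01 over all probes. The 2 PCN comparisons share no mice, whereas each genotype comparison shares its arrays with them.

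Among the members, the brightest probes of *Rxra* and *Ncoa1* followed each other most closely, at r = 0.68 over 23 arrays with the batch effect removed, and at 0.41 once the group means were removed too. For *Rxra* the most similar of 15098 genes was *Gcgr*, the glucagon receptor gene (r = 0.92), and the least similar *Gstm3*, a glutathione transferase gene (r = -0.90). For *Ncoa1* the most similar was *Fgfr4*, which encodes the hepatic receptor for the gut hormone FGF15 (r = 0.91). With the group means removed, these values were 0.75, -0.60 and 0.75. *Psap* was closest to *Nr1i2* (r = 0.84), *Zfp612* to *Hnf4a* (r = 0.85), and *Apoc2* to *Nr5a2* (r = 0.86). The remaining members were closest to *Thap11* (*Rxrb*, r = 0.74), *Pidd1* (*Rxrg*, r = 0.83), *Samd4b* (*Ncor1*, r = 0.81) and *Slc30a1* (*Nrip1*, r = 0.72). For these other pairs the values with the group means removed lay between 0.67 and 0.82.

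The other nuclear receptors were set beside the members. This list and those that follow were chosen with earlier results of these data known, so their shares are descriptions and not tests. Of 41 listed, 34 were measured, and in WT mice 12 were called after PCN (35.3%, against 6.18% of all genes at 1 probe per gene). The 4 that rose included *Nr6a1*, the germ cell nuclear factor gene (1.01 ± 0.09, SE), *Nr4a1* (1.00 ± 0.19) and *Esr1*, the estrogen receptor α gene (0.99 ± 0.15). The 8 that fell included *Ppara*, the regulator of fatty acid oxidation (-1.05 ± 0.10), and *Nr0b2*, which encodes the atypical repressor SHP (-1.03 ± 0.33). The median change of the 34 was -0.25, against -0.02 over all genes.

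Of the 34 other receptors 1 was called after PCN in *Pxr*-/- mice, *Esr1* at 0.64 ± 0.14 (SE, limma adjusted p = 0.0110), where 2.28% of all genes were called. The responses of the genotypes differed for 4 of them (11.8%, against 1.05% of all genes). WT minus *Pxr*-/-, these were *Nr6a1* at 1.39, *Ppara* at -0.87, *Nr2c1* at 0.62 and *Nr1h4*, the bile acid receptor gene, at -0.62. *Nr1i3*, at -1.27, was larger in size than 3 of these 4.

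**Figure D4:**
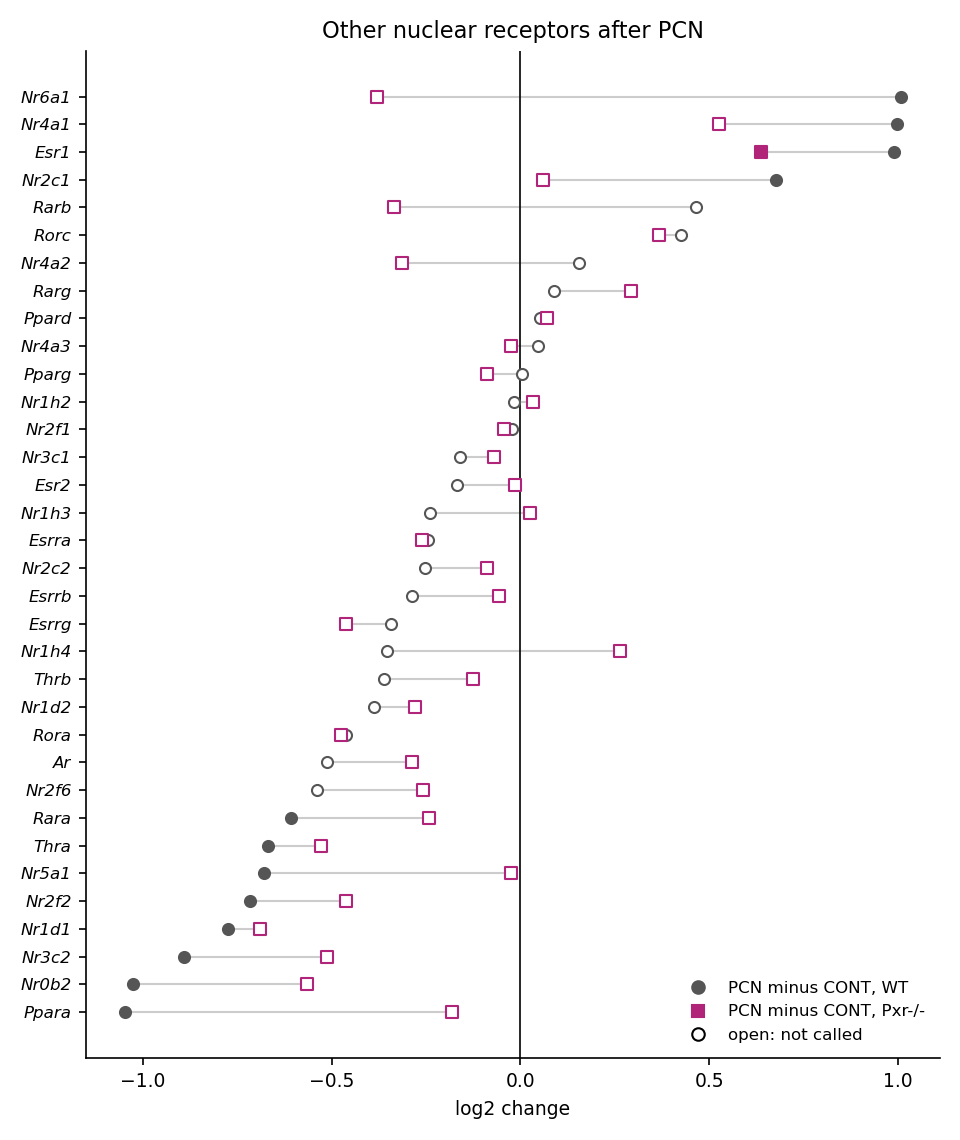
Log2 change after PCN (horizontal axis) of the 34 other nuclear receptors measured, in WT (circles) and *Pxr*-/- mice (squares), sorted by the WT change; filled symbols are called. In WT mice 4 receptors rose and 8 fell, and in *Pxr*-/- mice *Esr1* rose.

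Of 20 other coactivators 1 was called in WT mice (5%) and 2 in *Pxr*-/- mice (10%), against 6.18% and 2.28% of all genes. *Ppargc1a*, the inducible coactivator of mitochondrial and gluconeogenic genes, fell in both genotypes, by -1.20 ± 0.18 (SE) in WT mice and -0.96 ± 0.18 in *Pxr*-/- mice, and *Ppargc1b* fell in *Pxr*-/- mice, by -1.07 ± 0.19 (limma adjusted p = 0.00255). Of 16 other corepressors 1 was called in WT mice (6.25%), *Nr0b2*, and none in *Pxr*-/- mice. Of 15 genes of the cytoplasmic complex that holds or releases CAR and PXR, 1 was called in WT mice (6.67%) and 2 in *Pxr*-/- mice (13.3%). *Gadd45b*, a CAR-binding stress gene, rose by 4.35 ± 0.26 (SE) in WT mice and by 1.23 ± 0.25 in *Pxr*-/- mice. *Egfr*, whose signalling keeps CAR inactive, rose by 0.85 ± 0.19 (adjusted p = 0.0115) in *Pxr*-/- mice.

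Of 18 other hepatocyte transcription factors, 7 were called in WT mice after PCN (38.9%, against 6.18% of all genes at 1 probe per gene). Of these 6 were lower, among them *Dbp* (-1.49 ± 0.24, SE), *Hlf* (-0.99 ± 0.18) and *Tef* (-0.81 ± 0.14), which encode clock-driven factors, and *Cebpa* (-0.72 ± 0.12). After PCN in *Pxr*-/- mice 3 were called (16.7%, against 2.28% of all genes), all higher, *Prox1* at 0.70 ± 0.16, *Foxa3* at 0.67 ± 0.18 and *Gata6* at 0.59 ± 0.16.

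Genes on which PXR and CAR are known to act were set beside the receptor mRNAs. This list too was chosen with earlier results of these data known, so its shares are descriptions. Of 36 measured targets, 28 rose in WT mice after PCN and 0 fell (77.8%, against 6.18% of all genes). The median change of the 36 was 1.18, and the largest rises were those of *Cyp2b10* (6.76 ± 0.70, SE), *Cyp2b9* (6.43 ± 0.64), *Cyp2c55* (6.26 ± 0.23) and *Gadd45b*. These cytochrome P450 genes belong to families of near-identical sequence, so a probe may read more than 1 of them. Among *Pxr*-/- mice, 5 of the 36 rose (13.9%, against 2.28% of all genes), with a median change of 0.40. They were *Slco1a4*, a hepatic uptake transporter gene (1.31 ± 0.31), *Gadd45b* (1.23 ± 0.25), *Gstm2* (0.78 ± 0.19), *Ces2a* (0.71 ± 0.13) and *Por*, which encodes the electron donor of cytochromes P450 (0.62 ± 0.15). *Cyp2b10*, the usual marker of CAR activity in mice, had a change there of 1.57 ± 0.66 (SE, limma adjusted p = 0.166). CAR activity was not measured, and any part of CAR mRNA in these changes was not tested.

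The same 36 targets also compared the genotypes. After PCN, 17 were lower in *Pxr*-/- than in WT livers and 0 were higher (47.2%, against 2.09% of all genes), with the largest differences for *Cyp2b10* (-4.88 ± 0.70, SE), *Cyp2b9* (-4.72 ± 0.64), *Slco1a4* (-3.30 ± 0.32) and *Gadd45b* (-3.13 ± 0.26). In CONT livers 9 were higher in *Pxr*-/- mice and 1 was lower, with *Cyp2c55* at 2.80 ± 0.22, *Cyp2c38* at 1.48 ± 0.16 and *Cyp2a4* at 1.45 ± 0.24, and with *Slco1a4* lower at -1.83 ± 0.31. Over all genes, 0.309% were called in that comparison.

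Targets of HNF4A and LRH-1 gave 4 calls of 28 in WT mice after PCN (14.3%, against 6.18% of all genes). *Ces1d* was higher (1.07 ± 0.22, SE), and *Nr0b2* (-1.03 ± 0.33), *Apoa5* (-0.87 ± 0.10) and *Gys2* (-0.74 ± 0.21) were lower. *Apoa1* was the single call in *Pxr*-/- mice (3.57%, against 2.28% of all genes), at 0.62 ± 0.10. The median change of the 28 was -0.13 in WT mice and -0.04 in *Pxr*-/- mice.

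Some markers of stellate and blood cells rose with PCN in both genotypes. The stellate cell collagen genes *Col1a1*, *Col1a2* and *Col3a1* rose by 2.18 to 3.17 in WT mice and by 1.22 to 1.96 in *Pxr*-/- mice, 3 of 12 stellate markers in each case (25%, against 6.18% and 2.28% of all genes). The median change of the 12 was 0.09 in WT mice, with 7 higher and 5 lower. In *Pxr*-/- mice it was 0.11, with 11 higher and 1 lower. The summed stellate level, as a mean log2 signal of the 12, went from 9.69 to 10.23 in WT CONT to 10.16 to 10.86 in WT PCN, a mean to which these collagens contribute. The neutrophil genes *S100a8* and *S100a9* rose by 2.00 to 2.21 in the 2 genotypes, and the platelet gene *Pf4* rose by 1.09 in WT mice. Of the 9 blood cell markers 4 were higher and 5 lower in each genotype, with median changes of -0.25 in WT mice and -0.28 in *Pxr*-/- mice. Kupffer and endothelial markers gave no call in either PCN comparison, and none of 9 lymphocyte markers did. Of 7 cholangiocyte markers *Sox9* rose in WT mice, by 0.76 ± 0.21, while *Epcam* was well above background on 10 arrays and the B cell gene *Cd79a* on 3. The median change of the 7 after PCN was 0.41 in WT mice and 0.60 in *Pxr*-/- mice, with 5 higher and 2 lower in each. All 7 were lower in *Pxr*-/- CONT than in WT CONT, with a median of -0.40 and none called. This was not particular to them, since all 12 Kupffer markers were lower there too, with a median of -0.12. So were 10 of 12 endothelial, 9 of 12 stellate and 6 of 9 lymphocyte markers. Most blood markers (7 of 9) and hepatocyte markers (8 of 12) were higher, and none of these lists had a call. The part of these markers in the member results was not tested.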

How the data were processed

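Per the file headers, Agilent Feature Extraction 10.10.1.1 wrote the deposited scanner files, which hold unnormalized intensities of each spot with quality flags. The authors also deposited normalized log2 values of the same arrays for 32574 probes, which they filtered, batch corrected and normalized with CrossNorm. These were an alternative here, and covered 31940 of the probes kept.

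From the scanner files, log2 median signals were taken, spots with outlier flags were removed, spots of a probe were averaged, and quantile normalization was run on probes that any 1 group had well above background in over 50% of its arrays. Models were fitted with limma 3.58.1 in R 4.3.3 with a term per group and 1 for washing batch (18 residual degrees of freedom), and 5 contrasts were tested. Two-sided p-values were adjusted by Benjamini-Hochberg over all 32087 probes. Because of the batch term, fitted changes can differ slightly from differences of group means. The fit was first tested on simulated data.

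Coordinates are mm9, from the array files. Gene names found in the RefSeq table (GRCm38.p6) numbered 15099 of 21056, with all 10 members among them. Probes of different genes are not comparable in level, and the number of arrays limits the precision. Groups and batches came from the labels. Replicate numbers were not treated as pairing mice. The p-values measure the spread between mice of 1 experiment.

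Every member is named with all its probes, and the brightest probe stands for the gene. From other lists, counts are given for all genes, and up to 4 called genes with the largest change are named, with the rest named where a list had 5 or fewer calls. *Esr1* in WT mice, *Cyp2b10* in *Pxr*-/- mice and the cell type markers were named after their values were seen. One gene alike to a member is not reported here. The members and lists were chosen with earlier results of these data known. Alternatives were other signals and normalizations, the deposited values, no filter on dim probes, no batch term, each batch alone, slide as a random block, a replicate block, fits of only the groups compared, and each array left out.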

Additional observations from a re-analysis of the deposited data

Results flagged for a closer look

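The response of *Nr1i3* to PCN differed between the genotypes by -1.27 (WT minus *Pxr*-/-, log2) on the probe near the end of the mRNA, with a limma adjusted p of 0.0213. Within the WT PCN group this probe spread over 9.78 to 11.40, and the gap of the lowest mouse did not pass Dixon's criterion.

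Of 108 probe and group combinations of the members, 6 had a highest or lowest array whose gap to the next, divided by the range of the group, exceeded Dixon's 95% critical value, and chance flags about 1 in 20. The largest was 0.912, for the *Ncor1* probe on the opposite strand, where *Pxr*-/- CONT replicate 1 read 7.86 against 5.62 for the next array. The other 5 were low arrays in WT CONT. Replicate 3 was low for *Rxrg* (ratio 0.685, 8.93 against 9.46), for the brightest *Ncor1* probe (ratio 0.692, 11.41 against 11.57) and for 1 *Nrip1* probe (ratio 0.628, 5.80 against 6.10). Replicate 6 was low for *Nr5a2* (ratio 0.650, 11.69 against 11.87), and replicate 1 for another *Nrip1* probe (ratio 0.782, 7.71 against 8.12).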

How the results depend on the processing

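The counts of called members were the same in 162 alternative fits and moved in 7. With the deposited values, and without WT CONT replicate 3 alone, PCN in WT mice called 1 member, *Nr1i2*, in place of 0. With any 1 array left out, the count was 0 to 1 for PCN in WT mice, 1 for PCN in *Pxr*-/- mice, for the difference between responses and for *Pxr*-/- PCN against WT PCN, and 0 for *Pxr*-/- CONT against WT CONT. Washing batch 1 alone called 0 members for PCN in *Pxr*-/- mice, for the difference between responses and for *Pxr*-/- PCN against WT PCN, and batch 2 alone called 0 for the last 2. These fits hold 11 or 12 arrays.

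Signs turned for values that were not called. In batch 1 alone the *Nr1i2* difference between responses was -0.38. In batch 2 alone *Nr1i3* after PCN in WT mice was 0.33 on the probe near the end and 0.53 on the other, which also gave 0.14 for *Pxr*-/- against WT in CONT, while *Nr1i2* gave 0.77 and 0.051 for *Pxr*-/- against WT in CONT and PCN. With the deposited values the *Hnf4a* difference after PCN, *Pxr*-/- minus WT, was -0.066. With 1 array left out, *Nr1i2* ranged from -0.26 to 0.18 for genotype in CONT and from -0.024 to 0.40 for the difference between responses, and the *Nr1i3* probe near the start from -0.34 to 0.030 for PCN in WT mice.

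The deposited values moved the median of all probes by 0.11 for PCN in WT mice, -0.11 for genotype in CONT and -0.18 for genotype in PCN. The processed signal scaled to the 75th percentile called 2871 of all probes for PCN in WT mice, against 1770 for the quantile-normalized median signal and 1843 for the median signal scaled to the 75th percentile, and the deposited values called 1441 for *Pxr*-/- PCN against WT PCN, against 573. For PCN in *Pxr*-/- mice, batches 1 and 2 alone called 71 and 120 against 620, and for the difference between responses 116 and 127 against 283. For *Pxr*-/- PCN against WT PCN they called 371 and 145. Batch 2 alone called 1043 for PCN in WT mice. For genotype in CONT, batch 1 alone called 14 and a fit of only those groups 56, against 87. The *Nr1i3* probe near the start lost its call for *Pxr*-/- PCN against WT PCN in 12 fits, with adjusted p from 0.052 to 0.329. These were 6 of 23 fits with 1 array left out and 6 of 11 other alternatives. With a replicate block *Nr1i3* kept its calls, at 0.97 for PCN in *Pxr*-/- mice (adjusted p = 0.00462), -1.27 for the difference between responses (0.0163) and 0.86 for genotype in PCN (0.0107). Same-numbered mice were not treated as pairs. With group and batch means removed, their 33 pairs correlated at a median of 0.0025, against -0.021 for differently numbered mice of different groups. They ranged from -0.17 to 0.61, with 13 above 0.1, a share not counted for the other pairs. The slide block correlation was 0.0095. Arrays give no depth, and dim probes limit what can be read.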
